A study of Rattus norvegicus with 6 samples.

Results

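The 9 genes described here encode enzymes that turn squalene into cholesterol: Sqle, Lss, Cyp51, Tm7sf2, Msmo1, Nsdhl, Ebp, Sc5d and Dhcr7. They were taken by symbol from a table of 33350 gene models, in which each of the 9 symbols has 1 row, and all 9 were among the 12198 genes high enough to be tested (1 FPKM or more on average across the 6 libraries; FPKM is the number of reads scaled to gene length and library size). The labels name the cells as PC12, a rat pheochromocytoma line, and 6 RNA libraries of them were sequenced. In the 3 EC libraries the cells had been given exosomes, small secreted vesicles, from control endothelial cells. In the 3 EN libraries the exosomes came from endothelial cells with high expression of NTN1, which encodes the guidance protein netrin-1. All 6 libraries thus received endothelial exosomes, and no library of cells without exosomes is among them. Dose and exposure time are not stated. Whether replicates were separate cultures is not stated either, and p-values here reflect the spread among these samples alone, which may be technical.

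Cholesterol is built in the endoplasmic reticulum from acetyl-CoA through mevalonate and the linear hydrocarbon squalene. After squalene, an oxygenation and a cyclization give lanosterol, the first sterol, and a series of demethylations, reductions and double-bond shifts then gives cholesterol. Genes of the whole pathway are classical targets of the SREBP transcription factors, which are released when sterols in the endoplasmic reticulum are low, and growing neurites and myelinating glia are known for a high demand for cholesterol.

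Whole reads could be worked back from the table and came to 15296193 to 16165804 per EC library and 16654025 to 19626012 per EN library, with every EN total above every EC total. The share of reads from mitochondrial genes was 5.43% to 6.09% in EC and 4.40% to 5.50% in EN. Defining genes of chromaffin cells, from which PC12 derive, were low in all libraries: of 14, only Th and Slc18a2 were high enough to be tested, neither of these passed in limma (1 lower at an unadjusted p under 0.05, 0 with voom), none of the 14 had a mean of 10 FPKM, and 4, Pnmt and Hand2 among them, had no read. Of 10 Schwann and glial markers 9 were tested, 6 were lower in EN, 1 was higher and 2 did not pass. Over all 12198 genes tested, 7.14% passed as lower and 7.24% as higher, shares to be set beside every list count below as well. Among the lower ones was S100b (means of 131.3 and 95.4 FPKM), while Sox10, the factor that defines the lineage, did not pass (means of 102.5 and 104.8 FPKM). The higher one was Ngfr, named after its value was seen (means of 99.9 and 114.3 FPKM). Its call was lost in some fits with 1 library left out (limma adjusted p up to 0.116). Erbb3 did not pass either (means of 47.0 and 47.7 FPKM). Their summed level, in which S100b was the highest gene, was 475.8 to 483.8 FPKM in EC and 418.7 to 451.0 in EN. The sum thus moved in the same direction as the sterol enzymes, although the single markers were mixed. The part of this list in the results below was not tested. Of these 10 markers, 5 had a mean of at least 10 FPKM, against 0 of the 14 chromaffin genes. These levels do not bear out the PC12 label, and the identity of the cells was not tested. Of 9 endothelial markers in the table, 3 were tested and 1 (Egfl7) was higher, a call lost in 5 of the 6 fits with 1 library left out (adjusted p of 0.122 and 0.123 with EC replicates 2 and 3 left out, and of 0.0689, 0.126 and 0.0782 with EN replicates 1 to 3 left out). Cldn5 among them had no read, and their sum was 7.0005 to 8.98 FPKM in EC and 9.12 to 9.88 in EN. Egfl7 and Tek among them overlap an antisense model, as does Sox10 among the Schwann markers, and whether counting used strand is not stated. Of 8 fibroblast markers, 3 were tested and none passed in limma (0 at an unadjusted p under 0.05, 0 with voom). Their sum was 74.2 to 77.5 FPKM in EC and 72.4 to 75.6 in EN, and Lum had no read. Most of this sum was Pdgfra (means of 65.0 and 64.6 FPKM), the only 1 of the 8 with a mean of at least 10 FPKM.

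All 9 enzyme genes were lower in the EN libraries, by 1.33-fold (Sqle) to 2.03-fold (Tm7sf2) in mean FPKM, with a median of 1.52-fold. Each of the 9 passed the test (limma, Benjamini-Hochberg adjusted p under 0.05 over all 12198 genes), against 7.14% of all tested genes that passed as lower and 7.24% that passed as higher. The EN libraries lay below all EC libraries for each of the 9, against 19.4% of all tested genes, and above them for none, against 18.6%. The median log2 change of the 9 was -0.56 and that of all genes tested -0.0028. Log2 changes are EN minus EC after adding 1 FPKM, so those of low genes are understated, and folds are ratios of mean FPKM. Together the 9 genes took 0.352% to 0.355% of the reads in EC and 0.234% to 0.238% in EN. In bulk RNA, fewer cells with these transcripts and less of the transcripts per cell cannot be told apart.

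**Figure D1:**
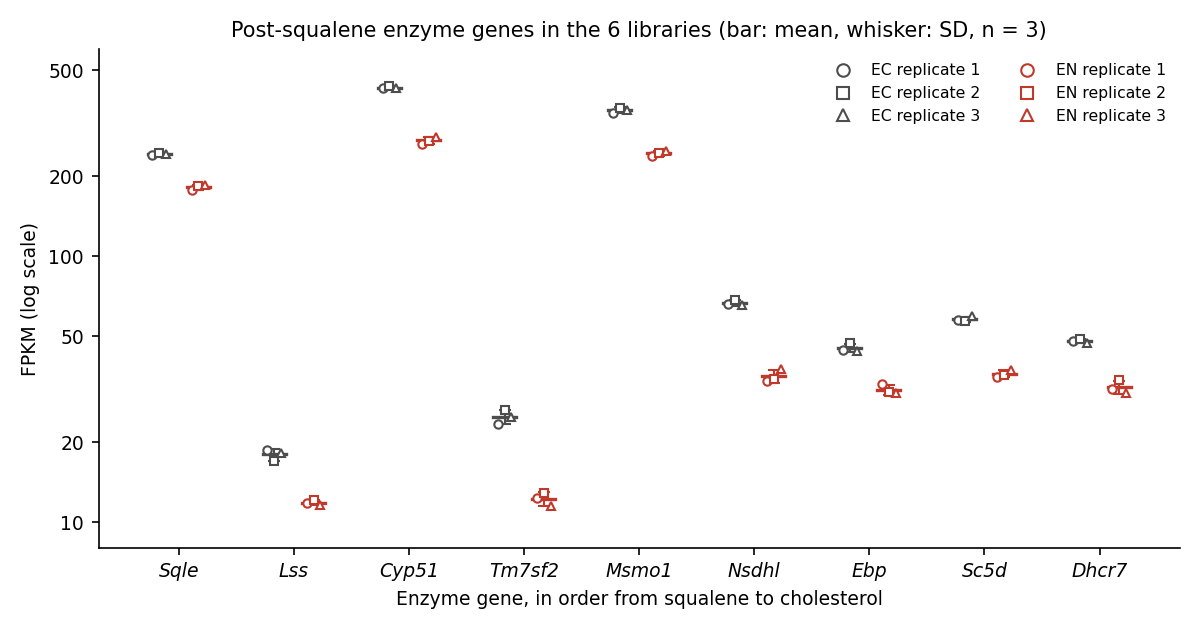
FPKM (log axis) of the 9 enzyme genes in each EC and EN library, in order from squalene to cholesterol; bars are group means and whiskers the SD of 3 libraries. For every gene the 3 EN points lie below the 3 EC points, and Cyp51, Msmo1 and Sqle stand above the other 6 genes in both groups.

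The enzymes up to lanosterol came first. Sqle encodes squalene epoxidase, the oxygenase that commits squalene to sterols and a known rate-limiting step (chromosome 7, 99609191 to 99624732, plus strand; all gene coordinates are on Rnor_6.0). It was at 240.7, 243.6 and 241.2 FPKM in EC replicates 1 to 3 and at 176.6, 183.2 and 184.9 in EN replicates 1 to 3. The coefficient of variation of the EC libraries was 0.640%, the smallest spread of the 9 in EC, and the decrease was 1.33-fold, the smallest of the 9 (log2 change -0.41, SE 0.033, limma adjusted p = 0.0019). Lss encodes lanosterol synthase, which folds the epoxide into the ring system (chromosome 20, 12842884 to 12870497, minus strand). It was the lowest of the 9 in both groups, at 18.7, 16.9 and 18.2 FPKM in EC and 11.8, 12.1 and 11.6 in EN, a 1.52-fold decrease (log2 change -0.56, SE 0.053, limma adjusted p = 0.0032). The gap between the lowest EC and the highest EN library was wider than the range within either group for both genes.

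Lanosterol is then stripped of its methyl groups. Cyp51, the cytochrome P450 that removes the methyl group at the ring junction (chromosome 4, 27175243 to 27194018, plus strand), was the highest of the 9, at 427.5, 435.6 and 428.9 FPKM in EC and 264.3, 272.1 and 281.0 in EN (1.58-fold lower; log2 change -0.66, SE 0.036, limma adjusted p = 4.11e-04). Tm7sf2 encodes the sterol reductase that acts on the double bond left by Cyp51 (chromosome 1, 221425987 to 221431713, minus strand). It was at 23.4, 26.5 and 24.7 FPKM in EC and at 12.3, 12.9 and 11.4 in EN, the largest decrease of the 9 (2.03-fold; log2 change -0.97, SE 0.065, limma adjusted p = 7.70e-04). Every EN library was at or below 12.9 FPKM and every EC library at or above 23.4. Among the 12198 genes tested, 41 had a more negative log2 change than Tm7sf2.

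Msmo1, Nsdhl and then Hsd17b7 remove the methyl pair at the other end of the molecule. Msmo1, the methylsterol monooxygenase (chromosome 16, 26859397 to 26875973, plus strand), was at 345.4, 362.2 and 355.5 FPKM in EC and 238.0, 244.6 and 249.1 in EN (1.45-fold lower; log2 change -0.54, SE 0.036, limma adjusted p = 7.70e-04). Nsdhl, the dehydrogenase that decarboxylates its product (chromosome X, 152933069 to 152964390, plus strand), was at 65.9, 68.3 and 65.4 FPKM in EC and 34.0, 34.6 and 37.7 in EN. This 1.88-fold decrease was the second of the 9 (log2 change -0.89, SE 0.049, limma adjusted p = 4.11e-04). In EC the level of Nsdhl was above that of Sc5d without overlap, whereas in EN the ranges of the 2 genes overlapped.

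The last members shift and reduce double bonds. Ebp, the sterol isomerase also known as the emopamil binding protein (chromosome X, 15049462 to 15055781, plus strand), was at 44.5, 47.1 and 44.0 FPKM in EC and 33.0, 30.8 and 30.6 in EN (1.44-fold lower; log2 change -0.51, SE 0.048, limma adjusted p = 0.0031). Sc5d, the lathosterol oxidase, which introduces a double bond (chromosome 8, 46525400 to 46537050, minus strand), was at 57.4, 57.2 and 59.5 FPKM in EC and 35.3, 35.8 and 37.3 in EN (1.61-fold lower; log2 change -0.67, SE 0.039, limma adjusted p = 5.39e-04). Dhcr7, the reductase of the last step of one of the 2 routes and the enzyme lacking in Smith-Lemli-Opitz syndrome (chromosome 1, 217018916 to 217034904, plus strand), was at 47.8, 48.7 and 47.3 FPKM in EC and 31.7, 34.2 and 30.5 in EN (1.49-fold lower; log2 change -0.56, SE 0.050, limma adjusted p = 0.0025). The coefficient of variation of Dhcr7 was 1.47% in EC and 5.90% in EN.

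The order of the levels was Cyp51, Msmo1, Sqle, Nsdhl, Sc5d, Dhcr7, Ebp, Tm7sf2 and Lss in EC, where the ranges of no neighbouring pair overlapped. In EN the order was the same except that Sc5d and Nsdhl changed places, but the ranges of Sc5d and Nsdhl, Nsdhl and Dhcr7, Dhcr7 and Ebp, and Tm7sf2 and Lss overlapped. Cyp51, Msmo1 and Sqle, all oxygenases, made up 79.8% of the summed FPKM of the 9 genes in EC and 81.4% in EN. The sum itself was 1287 ± 17.6 FPKM for the 3 EC and 857.2 ± 18.7 for the 3 EN libraries (mean ± SD), a 1.502-fold difference. The reads behind a value ranged from 431 (Tm7sf2, an EN library) to 23091 (Cyp51, an EC library), so that counting alone gives an error of up to 4.82% for Tm7sf2 and up to 0.804% for Cyp51.

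The size of the decrease was not even along the route. Relative to the EC mean and without a pseudocount, the EN libraries lay between -1.12 and -0.95 in log2 FPKM for Tm7sf2 and between -0.97 and -0.82 for Nsdhl. These ranges overlapped each other, and each lay below the EN ranges of all 7 other genes. Sqle lay at the other end, between -0.453 and -0.388, above the EN ranges of the other 8, although next to Ebp, whose range was -0.561 to -0.454. The remaining 6 genes lay between -0.72 and -0.45. These differences between members are a description and were not tested. No EN library was lowest throughout: EN replicate 1 held the lowest EN value for 5 of the 9 genes and EN replicate 3 for the other 4, while EC replicate 2 held the highest EC value for 7.

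**Figure D2:**
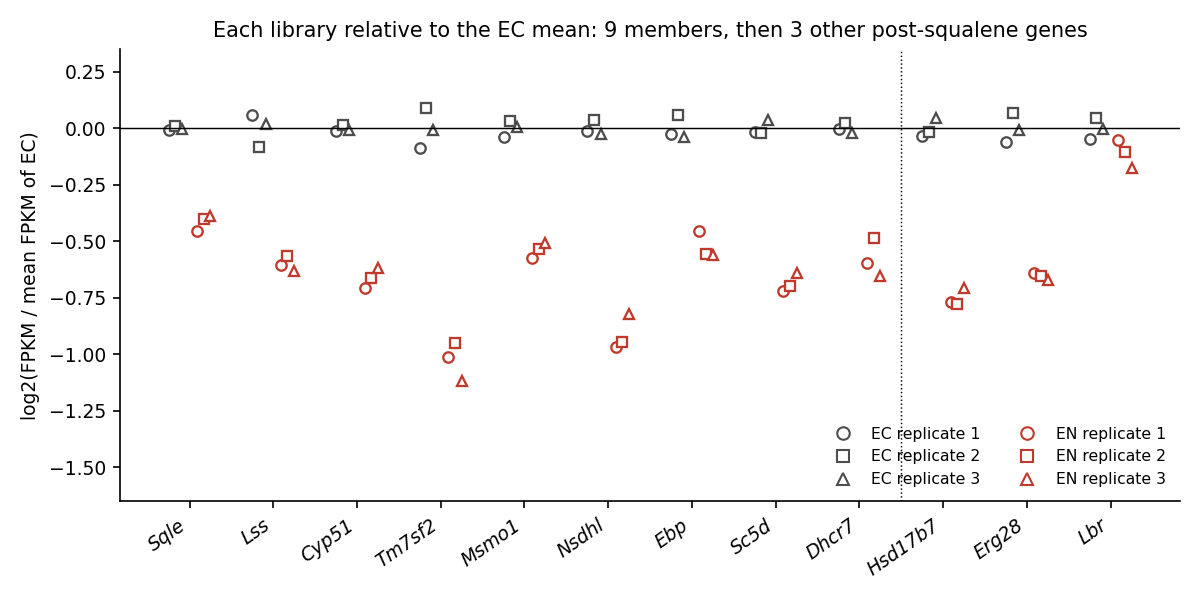
Log2 of FPKM in each library relative to the EC mean of the gene, for the 9 members and, right of the dotted line, for Hsd17b7, Erg28 and Lbr. EN points of Tm7sf2 and Nsdhl lie lowest (-1.12 to -0.82) and those of Lbr highest (-0.177 to -0.052).

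With each library left out in turn, all 9 genes still passed as lower in each of the 6 fits, with the highest limma adjusted p at 0.0226 (Ebp without EN replicate 2). The number of genes called over the whole table was less stable: 1754 with all libraries, but 338 and 408 with EC replicates 2 and 3 left out, and 446 and 344 with EN replicates 1 and 2 left out.

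Promoters of 8 of the 9 genes, and of Hsd17b7 and Lbr, were matched in the RefSeq table of the GRCr8 assembly, a different build from that of the expression table. The 250 bases upstream of each start were searched on both strands for CCAAT, the letters bound by NF-Y, which commonly acts beside SREBP, for GGGCGG (Sp1), and for TCACNCCAC and CACNCCA, letters of sterol regulatory elements, of which the longer contains the shorter. CCAAT was present in 6 of the 8 members and in 34.0% of all 33469 promoters, GGGCGG in 7 of 8 and in 30.5%, CACNCCA in 2 of 8 (Msmo1 and Ebp) and in 14.4%, and TCACNCCAC in 0 of 8 and in 0.974%. Lbr, whose own change did not pass, held both CCAAT and GGGCGG, as did Hsd17b7. The 33469 promoters were not limited to the genes tested for expression. The members' upstream windows also had more G and C, with a median of 63.6% against 51.2% over all promoters. A match is a description of letters, not a site. After the matches were seen, a shared position stood out, within 100 to 71 bases upstream of the start. There CCAAT lay on the strand opposite to the gene, and so reads ATTGG, in 5 of the 8 members and in 3.14% of all promoters. Strand and window were set around the members' own matches, so the contrast with 3.14% is not a test. Lbr, and Hmgcs1, Idi1 and Insig1, which were searched as well, had CCAAT matches only outside this window. Fdps, also searched, had a match there only on the gene's own strand. The 30 bases of this window are shown 5′ to 3′ on the gene's strand, with the match in capitals. They are given for those 5 members and for Hsd17b7, which acts between Nsdhl and Ebp.
Lss (GRCr8 chr20:12118301-12118330, minus strand): ccacctggtgatgctctgATTGGccgcgct
Tm7sf2 (GRCr8 chr1:212789612-212789641, minus strand): tcccagcgttgATTGGctactgtgctgggc
Nsdhl (GRCr8 chrX:155817260-155817289, plus strand): tgagcgtcaATTGGctacgccagaggcgag
Hsd17b7 (GRCr8 chr13:84722825-84722854, minus strand): gacgccgagttgcgATTGGcgggcccagcg
Ebp (GRCr8 chrX:16971362-16971391, plus strand): cttttccacttcactATTGGtccgcttcat
Sc5d (GRCr8 chr8:51538348-51538377, minus strand): gcgccggccgctgATTGGcgggctgcctgc

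The 2 members with the letters CACNCCA are shown over the 210 bases upstream of the start, with that match and every CCAAT match on either strand in capitals. In Msmo1 the match lies 189 to 183 bases upstream and is followed by 3 CCAAT matches on the gene's strand, and in Ebp it lies 199 to 193 bases upstream and is followed by 2 on the opposite strand.
Msmo1 (GRCr8 chr16:29746903-29747112, plus strand): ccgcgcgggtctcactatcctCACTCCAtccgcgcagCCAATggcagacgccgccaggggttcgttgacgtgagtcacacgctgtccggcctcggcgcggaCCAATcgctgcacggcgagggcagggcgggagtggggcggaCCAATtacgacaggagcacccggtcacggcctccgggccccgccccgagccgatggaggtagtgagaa
Ebp (GRCr8 chrX:16971252-16971461, plus strand): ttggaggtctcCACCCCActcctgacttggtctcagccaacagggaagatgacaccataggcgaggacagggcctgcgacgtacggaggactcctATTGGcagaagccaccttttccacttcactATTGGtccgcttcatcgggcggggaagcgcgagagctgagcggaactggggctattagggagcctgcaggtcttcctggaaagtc

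The 9 genes lie on 7 chromosomes, with Tm7sf2 and Dhcr7 4391083 bases apart on chromosome 1 and Nsdhl and Ebp both on chromosome X. Of 17 gene models within 10000 bases of a member, 14 were tested, with 1 lower, 1 higher and a median log2 change of 0.0084 (the 3 neighbours named here were chosen after their values were seen). The lower one was Cetn2, which encodes a centrin of centrioles and nucleotide excision repair (chromosome X, 152927718 to 152932953, minus strand). It starts 116 bases from the start of Nsdhl and runs the other way. Cetn2 was at 34.0, 34.6 and 32.9 FPKM in EC and 25.7, 26.1 and 25.0 in EN, 1.32-fold lower with no overlap between the groups (log2 change -0.39, SE 0.040, limma adjusted p = 0.0044). Its log2 change was less negative than the -0.89 of Nsdhl. The gene models of Cetn2 and Nsdhl do not overlap, and no member overlaps a model on the other strand.

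The neighbours of Tm7sf2 did not fall with it. Vps51, a subunit of a vesicle tethering complex (chromosome 1, 221430648 to 221440467), shares the strand of Tm7sf2 and 1066 bases with it, and how reads in the shared stretch were counted is not stated. Vps51 was at 8.27, 8.16 and 7.75 FPKM in EC and 10.6, 9.22 and 10.5 in EN (log2 change 0.29, SE 0.069, limma adjusted p = 0.0354). That call was lost without any 1 of the 6 libraries, with an adjusted p of 0.0566, 0.101 and 0.113 without EC replicates 1 to 3 and 0.110, 0.0535 and 0.0661 without EN replicates 1 to 3. It was also lost with no expression filter (adjusted p = 0.0759). Znhit2, 323 bases from the other end of Tm7sf2, was at 6.68, 7.02 and 6.44 FPKM in EC and 7.35, 6.85 and 6.22 in EN, with overlapping groups, and did not pass.

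**Figure D3:**
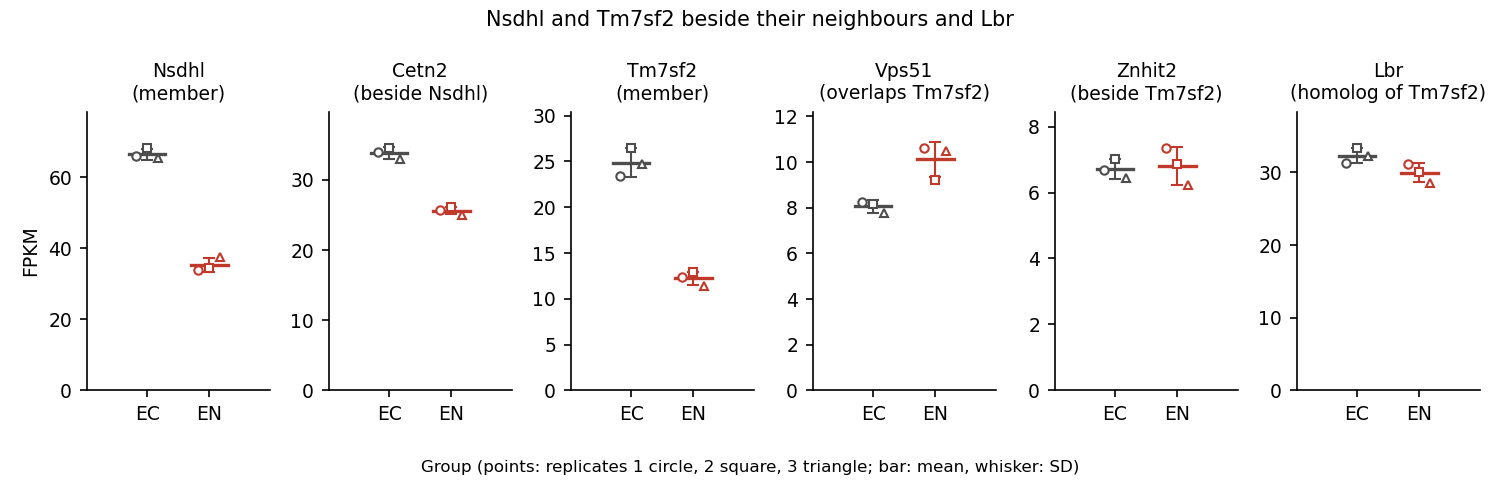
FPKM in each library (axes start at 0; points are replicates, bars means, whiskers SD) of Nsdhl and its divergent neighbour Cetn2, of Tm7sf2 and its neighbours Vps51 and Znhit2, and of Lbr. Nsdhl, Cetn2 and Tm7sf2 are lower in EN without overlap, Vps51 is higher, Znhit2 overlaps, and the EN points of Lbr end just below its EC points.

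Hsd17b7 and Erg28, which also act after squalene, were lower in EN as well. Hsd17b7, the reductase that completes demethylation after Nsdhl, was at 17.9, 18.2 and 18.9 FPKM in EC and 10.8, 10.7 and 11.3 in EN (1.68-fold lower; log2 change -0.70, SE 0.048, limma adjusted p = 8.08e-04). Hsd17b7 overlaps an antisense model, and whether counting used strand is not stated. Erg28, a membrane protein that tethers the demethylation enzymes and is listed under an older symbol, was at 62.4, 68.3 and 64.9 FPKM in EC and 41.8, 41.4 and 41.0 in EN (1.57-fold lower; log2 change -0.64, SE 0.043, limma adjusted p = 7.70e-04).

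Lbr encodes the lamin B receptor, an inner nuclear membrane protein with the same sterol reductase activity as Tm7sf2 (chromosome 13, 100431390 to 100450209, minus strand). It was at 31.3, 33.4 and 32.3 FPKM in EC and at 31.2, 30.1 and 28.6 in EN, and did not pass (log2 change -0.11, 95% interval -0.22 to 0.0065, limma adjusted p = 0.175). The log2 ratio of Tm7sf2 to Lbr, taken within each library on values with 1 FPKM added, was -0.40, -0.32 and -0.37 in EC and -1.27, -1.16 and -1.25 in EN. The mean ± SD of the 3 libraries was -0.37 ± 0.040 for EC and -1.23 ± 0.056 for EN, a difference of -0.86 (exact two-sided permutation p = 0.1, the smallest that 3 against 3 allows), and it was lower in all 3 EN libraries. Lbr thus had the higher FPKM of the 2 reductase genes in every library.

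**Figure D4:**
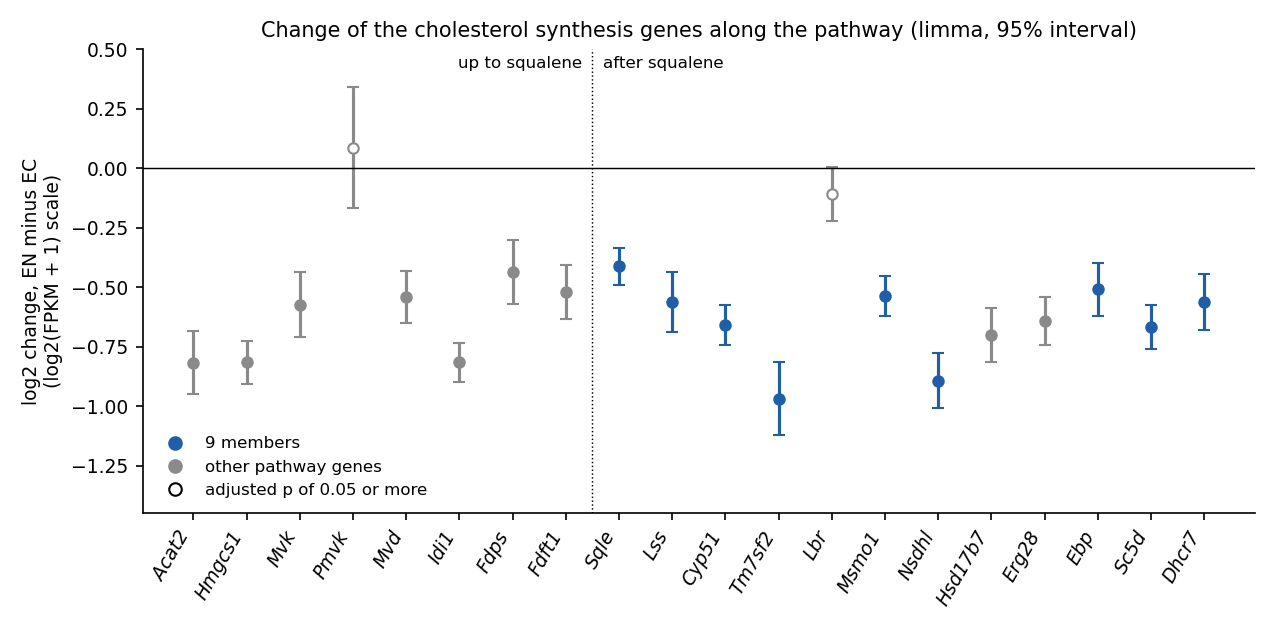
Log2 change, EN minus EC on the log2(FPKM + 1) scale, with 95% intervals from limma, for 8 genes up to squalene and 12 after it; blue marks the 9 members and open points an adjusted p of 0.05 or more. Pmvk (0.09) and Lbr (-0.11) are the open points, and Tm7sf2 (-0.97) and Nsdhl (-0.89) lie lowest.

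Upstream of squalene, 8 of 9 genes passed as lower in limma and none as higher, which left 1 (0 higher at an unadjusted p under 0.05 and 0 with voom), with a median log2 change of -0.54 beside -0.56 for the 9 post-squalene members. Hmgcs1, Idi1 and Acat2, which act in the making and the isomerization of the isoprenoid precursors, had the largest decreases, from means of 185.0 to 104.6, 87.8 to 49.5 and 144.2 to 81.5 FPKM (1.77-fold, 1.78-fold and 1.77-fold), and Idi1 overlaps an antisense model. Fdft1, the squalene synthase that feeds Sqle and named for that after its value was seen, was at 100.6, 102.4 and 97.7 FPKM in EC and 65.2, 71.8 and 71.9 in EN (1.44-fold lower). Pmvk, a kinase of mevalonate metabolism, did not pass (log2 change 0.086, limma adjusted p = 0.620).

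Of 6 tested electron carriers listed as possible redox partners of the post-squalene oxygenases, 1 passed as lower in limma and none as higher. This left 5 (2 lower and 0 higher at an unadjusted p under 0.05, 1 lower and 0 higher with voom). The median log2 change was 0.013. Cyb5b, the outer mitochondrial membrane form of cytochrome b5, was at 51.7, 55.1 and 55.1 FPKM in EC and 39.1, 42.05 and 41.9 in EN (log2 change -0.39, SE 0.047, limma adjusted p = 0.0064). Por, the reductase that supplies electrons to Cyp51 and Sqle, was at 39.0, 39.5 and 36.2 FPKM in EC and 43.2, 38.3 and 39.1 in EN and did not pass. Cyb5a, the microsomal cytochrome b5 that serves Msmo1 and Sc5d, had a log2 change of 0.097. Cyb5r1, Cyb5r3 and Cyb5r4, named as cytochrome b5 reductases, had 0.079, -0.12 and -0.043. None of these 4 genes passed, although the EN libraries of Cyb5r3 lay below all its EC libraries (limma unadjusted p = 0.0191, adjusted p = 0.0863).

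Proteins that bind sterol ligands or resemble Ebp did not change detectably: of 4 tested, 0 passed in limma in either direction (0 at an unadjusted p under 0.05 and 0 with voom; median log2 change -0.039). Tmem97, an endoplasmic reticulum protein, had a log2 change of -0.082, and Pgrmc1 and Pgrmc2, membrane heme-binding proteins, had -0.046 and -0.031. Ebpl, a homolog of Ebp without known isomerase activity, averaged 0.039 FPKM (SD 0.067) over the EC and 0.049 (SD 0.051) over the EN libraries, under the minimum for testing.

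Among genes of SREBP control and sterol uptake, 3 of 8 tested passed as lower and 2 as higher, which left 3, with a median log2 change of -0.10. Insig1, which retains SREBP in the endoplasmic reticulum and is itself a target, was at 179.1, 186.2 and 178.2 FPKM in EC and 108.1, 110.0 and 111.6 in EN (1.65-fold lower). Stard4, a sterol carrier, fell by 0.51 on the log2 scale. Scap, the sterol sensor that escorts SREBP, rose by 0.22 (limma adjusted p = 0.0210), a call lost on leaving out EC replicates 2 or 3 (0.0827 and 0.0707) or EN replicates 1 or 2 (0.0624 and 0.0652), and it overlaps an antisense model. The other higher call was the protease gene Mbtps1, named after its value was seen (log2 change 0.14, limma adjusted p = 0.0482), a call lost in each of the 6 fits with 1 library left out (adjusted p of 0.0636 to 0.162). Srebf2, the SREBP gene of the sterol branch, had a log2 change of -0.087 and did not pass, as did Insig2 (-0.12) and Mbtps2 (-0.080). Srebf1 averaged 0.374 FPKM (SD 0.136) over the EC and 0.386 (SD 0.090) over the EN libraries, under the minimum for testing.

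In the machinery that degrades sterol enzymes, 1 of 10 tested genes was lower, 1 was higher and 8 did not pass (median log2 change -0.011). For comparison with each list of this paragraph, 7.14% of all tested genes passed as lower and 7.24% as higher. The ubiquitin ligase genes Rnf139 and Rnf145 had log2 changes of -0.25 and 0.23, with limma adjusted p of 0.0317 and 0.0163. Leaving out EC replicates 2 or 3 or EN replicates 1 or 2 ended both calls, with adjusted p of 0.0994, 0.0953, 0.0959 and 0.111 for Rnf139 and of 0.0587, 0.0638, 0.0556 and 0.0709 for Rnf145. Of 7 tested genes of sterol efflux, esterification and oxysterols, 1 was lower (Lcat, the plasma cholesterol acyltransferase, log2 change -0.44), 1 was higher (Nr1h2, an LXR receptor for oxysterols, log2 change 0.17) and 5 did not pass. The adjusted p of Nr1h2 was 0.0307, and it passed only with EN replicate 3 as the library left out: it was 0.0531, 0.102 and 0.103 without EC replicates 1 to 3 and 0.0894 and 0.0809 without EN replicates 1 and 2. Of the 9 genes that lead farnesyl units away to dolichol, ubiquinone and protein prenylation, 2 passed as lower and 1 as higher, which left 6 (median log2 change -0.042). Pdss1, Fnta and Coq2 had log2 changes of -0.22, -0.21 and 0.32, and the same 4 libraries each ended all 3 calls when left out, with adjusted p of 0.122, 0.101, 0.101 and 0.0850 for Pdss1, 0.137, 0.123, 0.0967 and 0.111 for Fnta, and 0.0827, 0.0922, 0.0872 and 0.0982 for Coq2. Those of Pdss1 and Fnta were also lost without EC replicate 1 (0.0563 and 0.0565).

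Outside these lists, genes were ranked by how closely their centred log2(FPKM + 1) profile over the 6 libraries followed the mean profile of the 9 members, as a root mean square distance. Cyp51 itself was nearest of all 12198 genes (0.024) and Tm7sf2 the farthest of the 9 members (0.174, rank 346). The mean profile is made from the members themselves, so their nearness is in part fixed by that choice. The nearest protein-coding genes outside the lists with a mean of at least 5 FPKM included Ndrg2 (0.036), Rassf4 (0.043), Ctgf (0.044), Scd2 (0.047) and Palmd (0.052). Scd2, a fatty acid desaturase, was at 1065, 1071 and 1054 FPKM in EC and 716.7, 734.3 and 729.6 in EN. Ctgf, a secreted matricellular protein, was at 1299, 1357 and 1299 FPKM in EC and 903.1, 893.8 and 864.5 in EN. These 5 were lower in EN without overlap, by 1.46-fold to 1.62-fold, a direction that the choice by likeness fixes.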

How the data were processed

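RNA from 6 libraries (3 EC, 3 EN, grouped by title) was analysed. Trizol extraction and a TruSeq RNA kit are named per the labels' protocols. The authors deposited 1 table of FPKM for all libraries. HISAT2 2.0.5 and the build Rnor_6.0 were used, per the submitters' processing notes. Counting tool, annotation release and strand setting are not stated there. Multiplied by gene length, 100% of the non-zero values were whole steps (within 0.001), which gave the reads.

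The test was limma 3.58.1 (R 4.3.3) on log2(FPKM + 1) with a variance trend, two-sided, group as the only term, a minimum mean of 1 FPKM, Benjamini-Hochberg adjusted over 12198 genes, threshold 0.05. The script was tested on simulated data. Members, lists and tests were chosen with earlier results of these data known. Named genes are the members, all other post-squalene genes, redox partners and Ebp-related genes, of each other list up to 4 called genes and, where at most 4 did not pass, those too, and the 6 nearest profiles. Some of these genes are counted in their lists and not reported here by name. Of the 14 chromaffin, 10 Schwann, 10 endothelial and 8 fibroblast markers, Pecam1 was unmatched, as were Marchf6 and Ufd1. Whether replicate numbers pair the samples is not stated. Same-numbered libraries had correlations of deviations of 0.088, -0.095 and -0.020, which show no sign of pairing but, with 3 libraries a group, cannot exclude it. The ratio of Tm7sf2 to Lbr was compared with an exact permutation test. Alternatives were pseudocounts, filters, scales, a block, voom on whole reads and each library left out. Counting errors cover sampling of reads only.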

Additional observations from a re-analysis of the deposited data

How the results depend on the processing

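All 9 members stayed lower and past the threshold in all 162 fits of a member under an alternative (18 alternatives each). Their log2 change ranged from -1.02 to -0.92 for Tm7sf2 and from -0.42 to -0.39 for Sqle, with the highest adjusted p at 0.0226 (Ebp). The median log2 change of all genes stayed between -0.0065 and 0.020 under every scale. Of 1002 fits of the other 56 named genes, 922 kept direction and side, 65 lost a call and 15 changed sign, all in genes that did not pass.

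The number of genes past the test was 866 without an expression filter, 1019 without a variance trend, and 338 to 2059 with 1 library left out. Without an expression filter, the higher calls in the SREBP list came to 1, the lower in enzyme turnover to 0, the farnesyl branch to 0 lower and 0 higher, and the higher among Schwann and among endothelial markers to 0. Without a variance trend, these were 1 for SREBP, 0 lower for turnover, 0 higher for efflux, 0 lower for the farnesyl branch, and 0 higher for Schwann and for endothelial markers. With quantile normalization, SREBP had 1 higher and the farnesyl branch 1 lower, and with voom the farnesyl branch had 1 lower. With 1 library left out, higher calls were 0 to 1 for SREBP, turnover, efflux, the farnesyl branch, Schwann and endothelial markers. Lower calls were then 0 to 1 for turnover, 0 to 2 for the farnesyl branch and 4 to 6 for Schwann markers. The cause was not tested.

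With the replicate number as a block, 1907 genes passed, all 9 members stayed lower, the ratio of Tm7sf2 to Lbr differed by -0.86 (exact sign-flip permutation p = 0.25, the smallest possible), SREBP had 1 higher and endothelial markers 0 higher. The block also ended the call of Vps51 (adjusted p = 0.0515). Whether the numbers pair the samples is not known. The ratio of Tm7sf2 to Lbr differed by -0.91 to -0.84 over its alternatives.

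Sign changes were few, and with 1 library left out the log2 change ranged from -0.063 to 0.0024 for Pgrmc2 (the latter without EN replicate 3), from -0.0079 (without EN replicate 1) to 0.20 for Pmvk, from -0.031 (without EN replicate 1) to 0.086 for Sox10, from -0.037 to 0.059 for Tek (-0.037 without EC replicate 2 and -0.014 without EN replicate 1), from -0.10 to 0.042 for Tie1 (the latter without EC replicate 1), from -0.033 to 0.017 for Pdgfra (0.0059 without EC replicate 3 and 0.017 without EN replicate 1) and from -0.034 to 0.071 for Znhit2 (-0.010 without EC replicate 3 and -0.034 without EN replicate 1). Pdgfra was also at 0.0076 (TPM), 0.00058 (quantile), 0.013 (length trend removed) and 0.015 (voom), and Znhit2 at -0.0023 (length trend removed). With 3 libraries a group and unknown culture origin, spread between cultures may be larger than shown. The lowest member values rest on 431 reads.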
